A study of Mus musculus with 6 samples.

Results

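The proteasome genes of mouse were followed across 6 RNA sequencing libraries, 3 labelled WT and 3 labelled KO. Members were taken as every gene symbol starting with Psm, a letter from a to g and a number. Of the 21399 genes listed in each library, 50 matched, and 48 of these averaged 1 FPKM or more across the 6 libraries and were kept. FPKM is the number of fragments per kilobase of transcript, scaled to the size of the library, so that levels of genes of different length can be compared. The members were thus selected on their mean FPKM over all libraries, and levels are given as a description. Psmd9, a chaperone of cap assembly, was the lowest member kept, with a mean of 7.25 FPKM. On the other side of the threshold stood Psmc3ip, a meiotic recombination factor named for a partner, at 0.811 FPKM, and Psma8, a core subunit of the testis, at most 0.127 FPKM in any library.

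In the co-culture, microglia of WT or KO mice carrying CD45.2 went through oxygen and glucose deprivation, a cell model of ischaemia, and were then reoxygenated together with CD45.1 peritoneal macrophages. All libraries share that treatment and the added macrophages. The labels name neither the deleted gene, the driver of a deletion nor the age of the mice. They also do not say whether replicates are separate cultures, so p-values rest on library-to-library spread alone, and that spread may be technical. The series title names PPARα, encoded by Ppara, which had 11, 1 and 2 recovered reads in WT replicates 1, 2 and 3, and 13, 23 and 10 in KO replicates 1, 2 and 3. These reads do not check the KO label, and WT and KO below stand for libraries carrying those labels. The design text calls the sorted cells CD45.1+ microglia although it gives CD45.1 to the macrophages.

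Markers of several cell types were present, and the sums given here did not overlap between the groups except for mast cells. The summed level of 22 peritoneal macrophage markers was 1677 to 4640 FPKM in WT against 6972 to 13723 FPKM in KO. The highest of them averaged 3664 FPKM over all libraries, beside a median of 33.5 FPKM for the 21 tested. That gene weighs heavily in the sum. For 9 B cell markers the sum was 5232 to 6033 FPKM in WT against 4635 to 5088 FPKM in KO. For 11 T and NK cell markers it was 200 to 244 FPKM and 161 to 192 FPKM. For 13 microglia markers it was 138 to 278 FPKM and 289 to 468 FPKM, with 3 of them at 1 FPKM or more in every library and Sall1 and Slc2a5 listed at 0 in at least 1. Mast cell markers, 6 in number, summed to between 10.3 and 558 FPKM in WT against between 107 and 468 FPKM in KO. In such bulk samples, fewer cells of a type and less RNA per cell cannot be told apart. WT replicate 2 and KO replicate 1 had the highest FPKM totals, 439451 and 439226, where the others had 391346 to 414931.

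The proteasome degrades proteins marked with ubiquitin. Its barrel-shaped 20S core is built of rings of alpha subunits, which gate the entrance, and rings of beta subunits, some of which cut peptide bonds. The 19S cap binds ubiquitin chains, and its ATPases unfold the substrate and thread it into the core. In cells exposed to interferon-gamma, and in lymphocytes and other blood cells without it, Psmb8, Psmb9 and Psmb10 are built into new cores in place of Psmb5, Psmb6 and Psmb7. That form, the immunoproteasome, and the activator PA28, encoded by Psme1 and Psme2, are known for supplying peptides to MHC class I.

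Proteasome genes were abundant in all 6 libraries, and the immune subunits Psmb8 and Psme1 were the highest. Psmb8, the immune chymotrypsin-like subunit, was the highest member by mean level, at 249, 299.4 and 230.4 FPKM in WT replicates 1, 2 and 3, and 267.6, 223.3 and 228.8 FPKM in KO replicates 1, 2 and 3. Psme1, the alpha subunit of PA28, was next, with 218 FPKM over all libraries. By the same mean, Psme2 ranked 7, Psmb9 ranked 13 at 79.3 FPKM and Psmb10 ranked 15 at 76.8 FPKM among the 48. The 5 immune subunits had a median level of 112 FPKM, against 70.7 FPKM for the 14 constitutive core subunits and 49.96 FPKM for the 17 subunits of the cap. All 48 members together held 0.707% to 0.776% of the summed FPKM of a library.

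**Figure D1:**
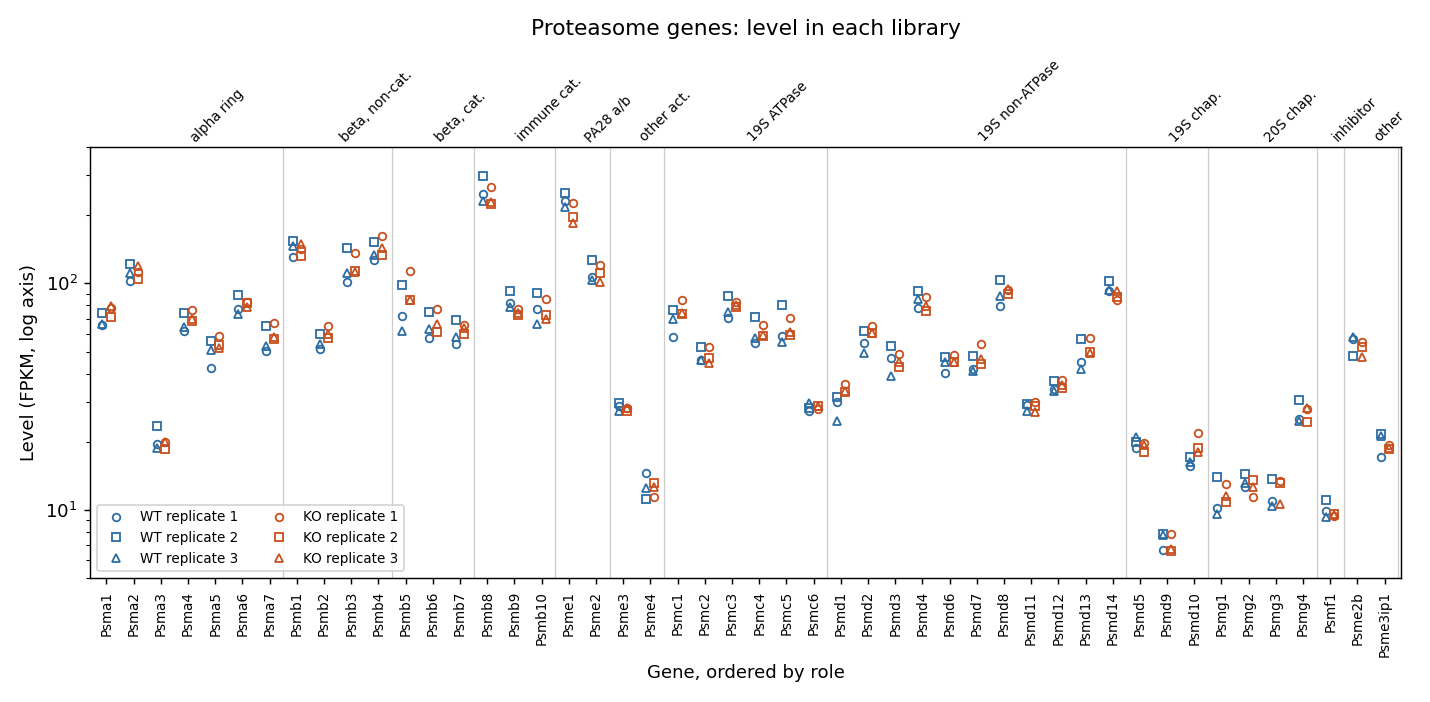
Level of the 48 proteasome genes in FPKM (log axis), with genes ordered by role on the horizontal axis. Each open symbol is 1 library, blue for WT and orange for KO, and the shape gives the replicate; Psmb8 and Psme1 lie highest, and the groups stand apart for 2 genes higher and 2 genes lower in KO.

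Comparing KO with WT asked whether proteasome transcripts differed with the genotype of the microglia. None of the 48 members was called at an adjusted p under 0.05 by limma over the 10732 genes tested, in which 0.028% were called. The smallest adjusted p among the members was 0.26, for Psmd10. At an unadjusted p under 0.05 there were 2 members higher in KO and 0 lower, where 8.86% of all genes were higher and 8.21% lower. Groups did not overlap for 2 members higher in KO and 2 lower, beside 9.75% and 15.2% of all genes. Each of these shares of the members lay below that of all genes tested, and the 2 members at an unadjusted p under 0.05 were Psmd1 and Psmd10. The median difference of the members was 0.01 on log2(FPKM + 1), beside -0.06 for all genes tested. Without WT replicate 2 the groups stood apart for 22 members higher and 3 lower in KO, beside 18.5% and 31.9% of all genes, and limma called 0 members but 514 genes higher. The members' median difference was then 0.10, and without WT replicate 1 it was -0.02. The members' 95% intervals are given where a member is named, because a missed threshold does not show equal levels.

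**Figure D2:**
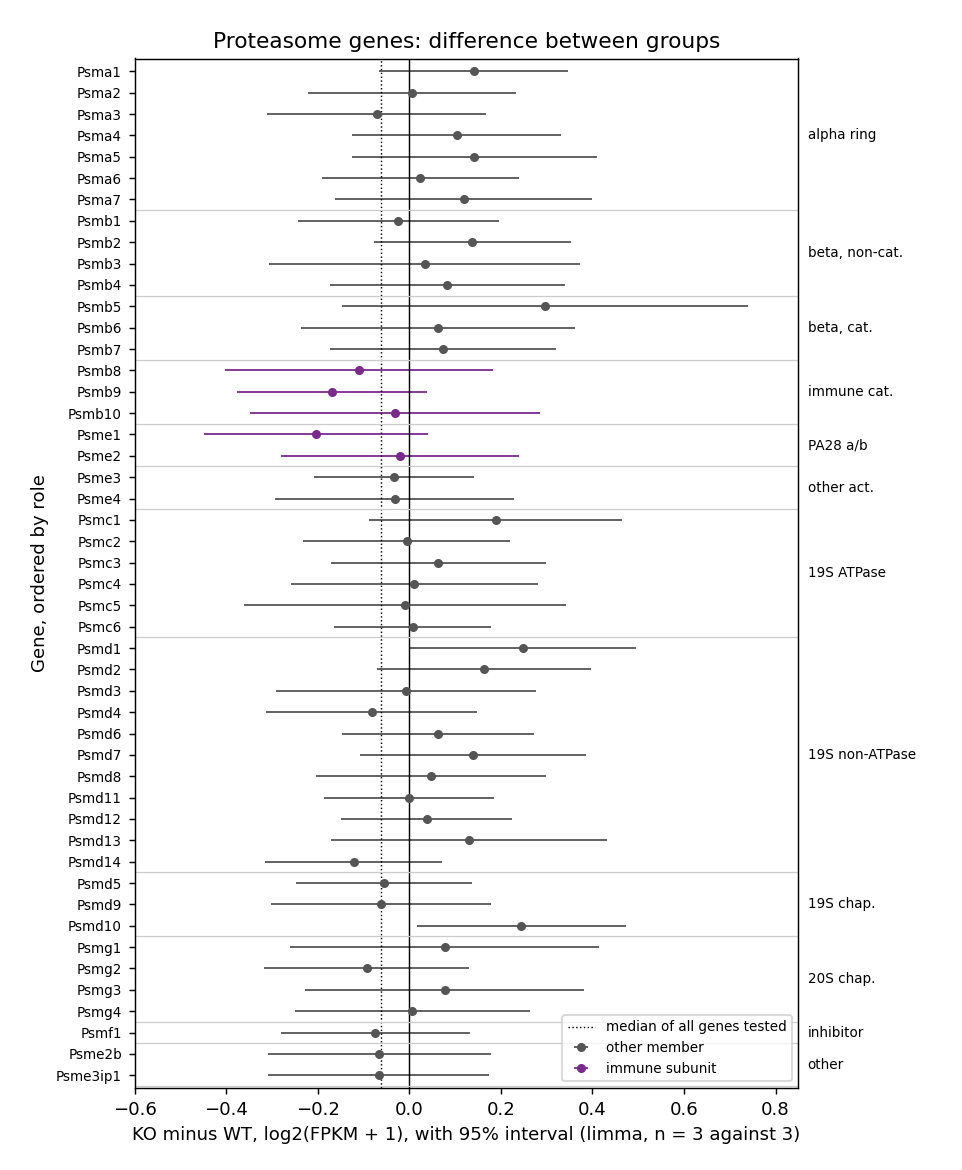
Difference between KO and WT (horizontal axis, log2(FPKM + 1)) for each of the 48 genes, with bars for the 95% interval of limma (3 libraries against 3). Purple marks the 5 immune subunits, all left of 0 as deposited and 3 of 5 with median-of-ratios scaling, and the dotted line the median of all genes tested at -0.06; all intervals but those of Psmd1 and Psmd10 cross 0.

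Each of the 5 immune subunits had a lower mean in KO as deposited, 3 of 5 did with median-of-ratios scaling, and none passed the test. Among all genes tested, 35.4% had a higher mean as deposited and 48.0% with that scaling. The median difference of the immune subunits was -0.11. Leaving out single libraries moved it from -0.19 without WT replicate 3 to -0.0026 without WT replicate 2. Without WT replicate 2, or without KO replicate 3, 3 of 5 had a lower mean. Psmb9, the immune subunit built in place of Psmb6, stood at 81.7, 92.3 and 78.5 FPKM in WT against 77.0, 72.3 and 74.4 FPKM in KO. Every KO library lay below every WT library, the nearest being WT replicate 3 and KO replicate 1. The difference was -0.17 with a 95% interval from -0.38 to 0.04 (limma adjusted p = 0.38). Psme1 had 230.3, 249.99 and 218.5 FPKM in WT against 225.8, 197.2 and 184.4 FPKM in KO. Its groups overlapped through KO replicate 1, and the difference was -0.20 (interval -0.45 to 0.04, limma adjusted p = 0.37).

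Psmb8 differed by -0.11 (interval -0.40 to 0.18, limma adjusted p = 0.68), with WT replicate 2 the highest library. Without that library its difference was -0.0026. Psmb10, the immune trypsin-like subunit, stood at 77.8 ± 12.1 FPKM in WT against 75.8 ± 8.72 FPKM in KO (SD, n = 3). Psme2, the beta subunit of PA28, stood at 112 ± 12.99 and 111 ± 9.39 FPKM. Both overlapped between the groups, with intervals of -0.28 to 0.24 for Psme2 and -0.35 to 0.28 for Psmb10. Under median-of-ratios scaling the differences of these last genes were 0.04 for Psme2 and 0.03 for Psmb10, so that 3 of 5 immune subunits remained below 0.

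The other activators were lower in level than PA28. Psme3, which encodes the nuclear activator PA28 gamma, stood at 28.6 ± 1.24 FPKM in WT against 27.9 ± 0.383 FPKM in KO. Psme4, encoding the large activator PA200, stood at 12.7 ± 1.72 and 12.4 ± 0.858 FPKM. Both overlapped between the groups, and the differences were -0.03 for each.

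Of the 14 constitutive core subunits, 12 had a higher mean in KO, with a median difference of 0.08, and 0 passed the test. The same sign was found for 35.4% of all genes tested. Core and cap together had 23 of 31 with a higher mean as deposited, 28 with median-of-ratios scaling, 19 with a common total and 12 when that total left out mitochondrial and ribosomal protein genes. The core median was 0.014 without WT replicate 1 and 0.17 without WT replicate 2, and 16 and 29 of the 31 then had a higher mean. Psmb5, the constitutive chymotrypsin-like subunit, had the largest difference of all members. It stood at 71.7, 98.3 and 61.8 FPKM in WT replicates 1, 2 and 3, and at 113, 84.9 and 84.3 FPKM in KO replicates 1, 2 and 3. WT replicate 2 lay above KO replicates 2 and 3, so the groups overlapped. The difference was 0.30, with an interval from -0.15 to 0.74 (limma adjusted p = 0.47). It was 0.48 without WT replicate 2 and 0.15 without WT replicate 3.

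Psmb6, the caspase-like subunit, had 57.5, 75.0 and 63.1 FPKM in WT against 76.9, 61.3 and 65.9 FPKM in KO. The trypsin-like subunit Psmb7 had 53.9, 68.7 and 58.0 FPKM in WT against 65.8, 60.1 and 63.5 FPKM in KO. Both pairs of groups overlapped, with differences of 0.06 (interval -0.24 to 0.36) and 0.07 (interval -0.17 to 0.32). Among the beta subunits without a catalytic site, Psmb1 was highest and Psmb2 lowest by the mean over all libraries, although in KO Psmb4 was higher, at 146 ± 14.3 FPKM. Psmb1 stood at 144 ± 11.5 FPKM in WT against 141 ± 8.36 FPKM in KO, and Psmb2 at 55.1 ± 4.43 and 60.6 ± 3.75 FPKM. The Psmb2 difference was 0.14 (interval -0.08 to 0.35, limma adjusted p = 0.49).

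Alpha subunits spanned a wide range of levels. Psma2, the highest alpha subunit, stood at 112 ± 9.65 FPKM in WT against 112 ± 7.62 FPKM in KO. Psma3, the lowest, stood at 20.6 ± 2.56 and 19.5 ± 0.837 FPKM. Psma1 had the smallest p of the ring, at 65.7, 74.2 and 66.5 FPKM in WT against 77.9, 70.8 and 79.2 FPKM in KO. Its difference was 0.14 (interval -0.07 to 0.35, limma adjusted p = 0.46), and WT replicate 2 lay within the KO range. The highest core subunit was 6.54 to 8.06 times the lowest within a library. Each alpha and beta position is filled equally often in an assembled core, whereas these are transcript levels.

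Subunits of the 19S cap were more even in level, the highest being 3.13 to 3.78 times the lowest within a library. Of the 17, 11 had a higher mean in KO, with a median difference of 0.04, and 0 passed the test. That median was -0.0034 without WT replicate 1, 0.12 without WT replicate 2 and -0.04 with a common total that left out mitochondrial and ribosomal protein genes. Psmd1, a large scaffold subunit of the base, stood at 30.1, 31.4 and 24.7 FPKM in WT against 35.8, 33.3 and 33.4 FPKM in KO. All KO libraries lay above all WT libraries. The difference was 0.25 (interval 0.00090 to 0.49, limma adjusted p = 0.29). Psmd2, the other large scaffold of the base, stood at 55.3 ± 6.30 FPKM in WT against 61.8 ± 2.39 FPKM in KO, with overlapping groups.

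Psmd14, the deubiquitinase that removes ubiquitin chains, had the highest mean of the cap subunits over all libraries, although Psmd8 was above it in WT replicate 2 and in all 3 KO libraries. Its own mean was lower in KO. It had 92.2, 102 and 93.3 FPKM in WT against 84.8, 87.3 and 92.1 FPKM in KO. The groups did not overlap, WT replicate 1 lying just above KO replicate 3, and the difference was -0.12 (interval -0.31 to 0.07, limma adjusted p = 0.49). The lowest subunit of the lid and base without ATPase activity was Psmd11, at 28.5 ± 1.11 FPKM in WT against 28.5 ± 1.44 FPKM in KO. Among the ATPases, Psmc3 was highest and Psmc6 lowest. Psmc3 stood at 77.6 ± 9.20 and 80.8 ± 2.17 FPKM and Psmc6 at 28.4 ± 1.07 and 28.5 ± 0.411 FPKM. Psmc1 had the smallest p of the ATPases, with a difference of 0.19 (interval -0.09 to 0.47, limma adjusted p = 0.46).

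Assembly factors were low in level, with medians of 17.9 FPKM for the cap chaperones and 12.5 FPKM for the core chaperones. Psmd10, the cap chaperone also called gankyrin, stood at 15.6, 17.2 and 16.2 FPKM in WT against 21.9, 18.8 and 18.0 FPKM in KO. Every KO library was above every WT library. The difference was 0.24 (interval 0.02 to 0.47, limma adjusted p = 0.26). The other cap chaperones, Psmd5 and Psmd9, had differences of -0.06 each. Of the core chaperones, Psmg4 was highest, at 26.8 ± 3.33 FPKM in WT against 26.8 ± 2.07 FPKM in KO, and Psmg1 lowest, at 11.2 ± 2.39 and 11.8 ± 1.06 FPKM. Psmg2, the partner of Psmg1, differed by -0.09 (interval -0.32 to 0.13). The inhibitor gene Psmf1 stood at 10.1 ± 0.922 and 9.52 ± 0.105 FPKM.

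The pattern of symbols also took Psme2b and Psme3ip1. Psme2b is a copy of Psme2 on chromosome 11 of mm10 from 48945354 to 48946190, overlapping other genes, and reads may be shared between the copies. It stood at 54.2 ± 5.38 FPKM in WT against 51.7 ± 4.00 FPKM in KO, and its value, like that of Psme2, is uncertain. Psme3ip1, whose product binds PA28 gamma, stood at 19.97 ± 2.49 and 18.9 ± 0.374 FPKM.

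Members tended to share their highest and their lowest library. Of the 48, 26 were highest in WT replicate 2 and 17 in KO replicate 1, the libraries with the highest FPKM totals. WT replicate 1 was the lowest library for 19 members and WT replicate 3 for 14. The median SD within a group was 0.13 on log2(FPKM + 1), beside 0.14 for all genes tested. Of all values, 96.5% lay within 0.25 of the gene's own mean, and the extremes of -0.44 and 0.43 both belonged to Psmb5. Scaling moved the number of members with a higher mean in KO. It was 27 of 48 as deposited, 37 with median-of-ratios scaling and 15 when totals were set equal without mitochondrial and ribosomal protein genes. For all genes tested the share with a higher mean was 35.4%, 48.0% and 23.9% in the same order, and their median difference -0.06, -0.0075 and -0.13. The genes of all kinds whose groups did not overlap split into 1046 higher and 1626 lower as deposited, and into 1392 and 968 with median-of-ratios scaling.

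**Figure D3:**
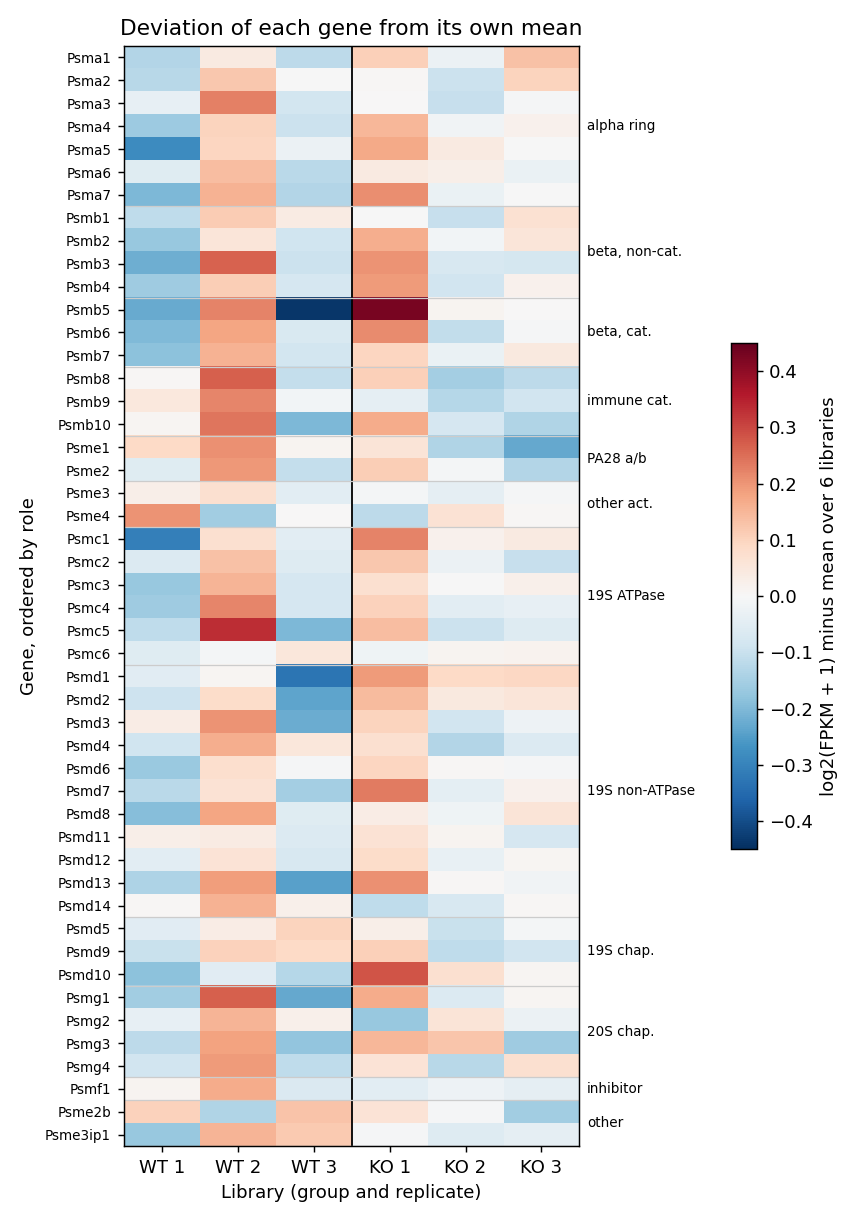
Deviation of each gene (rows, ordered by role) from its own mean over the 6 libraries (columns), in log2(FPKM + 1), with red above and blue below the mean. WT 2 and KO 1 are mostly red and WT 1 and WT 3 mostly blue; the darkest cells are those of Psmb5 in WT 3 and KO 1.

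Ratios within a library do not depend on its total, and for 2 of the 3 immune and constitutive pairs they kept the groups apart. The ratio of Psmb8 to Psmb5 was 3.48, 3.05 and 3.73 in WT replicates 1, 2 and 3, and 2.36, 2.63 and 2.72 in KO replicates 1, 2 and 3. All KO ratios lay below all WT ratios. Their mean was 3.42 ± 0.345 for WT against 2.57 ± 0.186 for KO (SD, n = 3), giving a log2 difference of -0.41. An exact two-sided permutation test gave p = 0.1, the smallest that 3 against 3 allows, and 0.15 after adjustment over the 3 pairs. Psmb8 thus made up 75.3% to 78.9% of the FPKM of this pair in WT and 70.2% to 73.1% in KO.

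For Psmb9 to Psmb6 the ratio was 1.42, 1.23 and 1.24 in WT and 1.00, 1.18 and 1.13 in KO. Here too the groups did not overlap, with a log2 difference of -0.24 (exact two-sided permutation p = 0.1, adjusted 0.15). Psmb10 to Psmb7 stood at 1.43, 1.32 and 1.14 in WT and 1.30, 1.204 and 1.09 in KO, and these groups overlapped. The log2 difference was -0.11 (exact two-sided permutation p = 0.4, adjusted 0.4). This design could not reach 0.05 for any of the 3 pairs, and the immune against constitutive contrast was proposed with earlier results of these data known. Between constitutive subunits, the log2 ratio of Psmb5 to Psmb6 differed by 0.24 and that of Psmb5 to Psmb7 by 0.22, with overlap. That of Psmb8 to Psmb6 differed by -0.17 without overlap and that of Psmb8 to Psmb7 by -0.19 with overlap. How often other gene pairs kept the groups apart was not counted. Within PA28, the ratio of Psme1 to Psme2 was 1.96 to 2.15 in WT and 1.78 to 1.88 in KO, chosen after the values were seen.

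**Figure D4:**
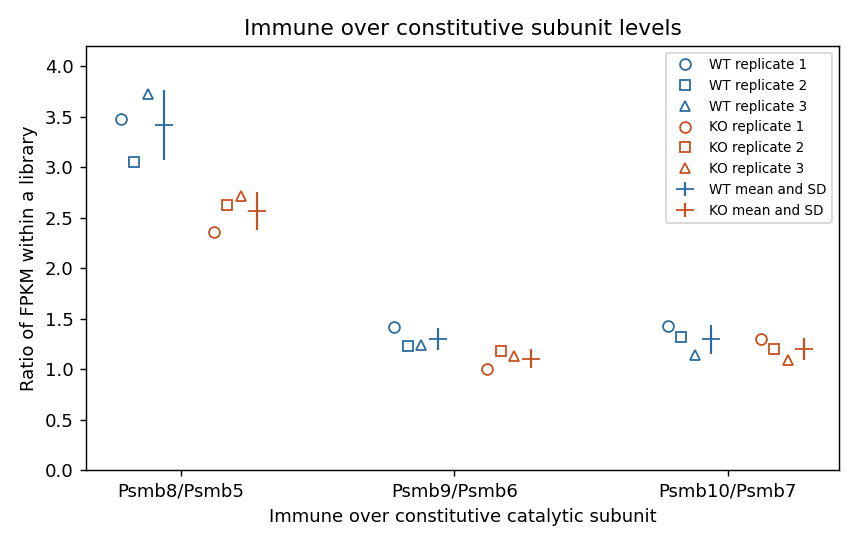
Ratio of the FPKM of an immune catalytic subunit to that of the constitutive subunit it replaces, for 3 pairs (horizontal axis). Symbols are libraries, blue for WT and orange for KO, and the crosses give the mean and SD; the KO ratios of Psmb8 to Psmb5 lie between 2.36 and 2.72 and those of WT between 3.05 and 3.73.

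The mean log2(FPKM + 1) of the 5 immune subunits minus that of the 31 constitutive core and cap subunits was 1.22, 1.16 and 1.09 in WT and 1.03, 1.00 and 0.92 in KO. The groups did not overlap, and the mean difference was -0.17. As a score over members it has no p. It ranged from -0.21 to -0.14 when single libraries were left out.

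The summed peritoneal macrophage markers were ordered against the ratio of Psmb8 to Psmb5. The highest of these markers averaged 3664 FPKM over all libraries, so the order of the sums rests largely on that gene. Ordered by the summed peritoneal macrophage markers, the libraries were WT replicate 3 at 1677 FPKM, WT replicate 1 at 2597 FPKM, WT replicate 2 at 4640 FPKM, KO replicate 3 at 6972 FPKM, KO replicate 2 at 8601 FPKM and KO replicate 1 at 13723 FPKM. The ratio of Psmb8 to Psmb5 ran in exactly the opposite order, from 3.73 down to 2.36, an order noticed after the values were seen. The ratio of Psmb9 to Psmb6 did not keep that order throughout, being lower in WT replicate 3 than in WT replicate 1. Nor did that of Psmb10 to Psmb7, which was 1.30 in KO replicate 1 and 1.14 in WT replicate 3. B cell marker sums did not follow the ratio of Psmb8 to Psmb5, being highest in WT replicate 2, where that ratio was the lowest of WT. The part of the cell mixture in these ratios was not tested.

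Promoters of Psmb5, Psmb9, Psmb6 and Psme1 are shown because they held letters searched for and the immune and constitutive genes are known to answer to different factors. Windows of 300 bases, from 250 before to 50 after an annotated start, were taken from RefSeq (GRCm38.p6) and matched 42 of the 50 symbols. Psma8, Psmb1, Psmb2, Psmb7, Psmc3, Psmd3, Psmd7 and Psmg2 had no match by symbol. Both strands were searched for a pair of GAAA with any 2 bases between, the ISRE letters bound by interferon regulatory factors, TGACNNNGC, the antioxidant response letters bound by NRF1 and NRF2, and CCAAT, bound by NF-Y. Capitals mark any of these, and the windows are written 5′ to 3′ along the gene's strand. Psmb5 is at chr14:54617946-54618245 on the minus strand, Psmb9 at chr17:34187281-34187580 on the minus strand, Psmb6 at chr11:70525107-70525406 on the plus strand and Psme1 at chr14:55578244-55578543 on the plus strand.
Psmb5: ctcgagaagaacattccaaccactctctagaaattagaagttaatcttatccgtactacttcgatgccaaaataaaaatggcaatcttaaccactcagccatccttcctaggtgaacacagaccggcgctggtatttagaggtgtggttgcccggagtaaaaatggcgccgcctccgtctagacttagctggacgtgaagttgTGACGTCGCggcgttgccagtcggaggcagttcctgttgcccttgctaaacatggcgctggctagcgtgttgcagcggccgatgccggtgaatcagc
Psmb9: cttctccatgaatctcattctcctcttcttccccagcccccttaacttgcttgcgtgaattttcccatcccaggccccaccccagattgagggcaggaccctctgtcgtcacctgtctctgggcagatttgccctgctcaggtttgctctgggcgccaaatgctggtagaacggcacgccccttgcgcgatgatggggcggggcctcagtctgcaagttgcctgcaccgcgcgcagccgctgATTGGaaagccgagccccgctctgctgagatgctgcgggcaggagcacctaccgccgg
Psmb6: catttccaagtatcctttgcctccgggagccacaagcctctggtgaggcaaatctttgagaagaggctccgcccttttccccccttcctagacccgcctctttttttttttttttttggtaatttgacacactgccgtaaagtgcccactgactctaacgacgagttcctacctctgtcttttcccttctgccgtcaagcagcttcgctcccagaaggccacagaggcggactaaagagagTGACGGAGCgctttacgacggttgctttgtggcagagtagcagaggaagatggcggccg
Psme1: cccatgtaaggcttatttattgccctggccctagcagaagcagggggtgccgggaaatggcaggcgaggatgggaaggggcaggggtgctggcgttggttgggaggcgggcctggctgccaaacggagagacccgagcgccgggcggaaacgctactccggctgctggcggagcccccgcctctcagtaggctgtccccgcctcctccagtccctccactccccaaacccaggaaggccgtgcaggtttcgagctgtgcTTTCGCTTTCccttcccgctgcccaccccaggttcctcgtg

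Psme1 held the ISRE letters on the other strand, TTTCGCTTTC. They were in 1 of 5 immune genes, in 2 of 25 constitutive core and cap genes, Psmb3 and Psmd4, and in 5 of 41 members kept with a window. Psmb5 and Psmb6 each held the antioxidant response letters, at positions -47 and -9 from the start. Psmb9 held only the CCAAT letters, as ATTGG at position -8. Of the 5 immune genes with a window, 0 held the antioxidant response letters, and of 25 constitutive core and cap genes 4 did, the others being Psmc6 and Psmd12. Over all 32851 windows of the table the share was 12.4% for the antioxidant response letters, 3.44% for ISRE and 37.4% for CCAAT. The letters of NF-Y were in 10 of the 25 constitutive genes and in 14 of all 41 members kept with a window. A match describes letters and not a bound site, and a missing match says only that the letters are not in the window.

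Psmb8 and Psmb9 lie in the MHC on chromosome 17 of mm10, from 34197721 to 34201454 on the plus strand and from 34181987 to 34187764 on the minus strand. Psmb9 starts back to back with Tap1, a subunit of the peptide transporter that feeds MHC class I, and the annotation lets the genes overlap. Their windows share 275 bases. Tap1 had 123, 116 and 108 FPKM in WT against 105, 101 and 92.3 FPKM in KO. As for Psmb9, every KO library was below every WT library (difference -0.22, limma adjusted p = 0.28). Tap2, the other transporter subunit, stood at 93.3 ± 5.23 and 79.8 ± 1.96 FPKM, also without overlap (difference -0.22, limma adjusted p = 0.23). No strand setting is stated, so reads of Psmb9 and Tap1, of Psmb8 and the antisense gene Gm20496, and of Psmb10 and the antisense gene Gm16156 cannot be told apart where they overlap. The same holds for Psme1 and Emc9 on chromosome 14.

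Of the 17 MHC class I presentation genes, 12 had a lower mean in KO, with a median difference of -0.07, and 0 passed the test. Over all genes tested, 35.4% had a higher mean, and the median difference was -0.06. At an unadjusted p under 0.05, 4 were lower and 0 higher, beside 8.21% and 8.86% of all genes. H2-Q4, a class I gene, stood at 251 ± 17.4 FPKM in WT against 206 ± 2.49 FPKM in KO (limma adjusted p = 0.18), and H2-T22 at 73.0 ± 0.959 and 63.1 ± 3.61 FPKM. Class I genes are similar in sequence, and their reads may be shared. Interferon-stimulated genes had a median difference of -0.14 over 25 tested, with 18 lower, 7 higher and 0 past the test. At an unadjusted p under 0.05, 2 were lower and 0 higher. The shares and the median over all genes are those given for the class I list. Uba7, the activating enzyme for ISG15, stood at 76.8 ± 4.60 and 61.5 ± 2.17 FPKM (limma adjusted p = 0.14), and Gbp4, a guanylate-binding protein, at 12.04 ± 1.75 and 8.88 ± 1.23 FPKM. Irf1, which activates immune subunit genes, stood at 50.9 ± 0.966 and 45.3 ± 0.919 FPKM, and Igtp at 35.1 ± 8.08 and 27.7 ± 3.69 FPKM. B cell marker sums were lower in KO as well, and their part was not tested.

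Of 23 regulators of proteasome genes and interferon signalling, 6 had a higher and 17 a lower mean in KO, with 0 past the test. A higher mean was found for 35.4% of all genes tested. At an unadjusted p under 0.05, 3 were higher and 2 lower, beside 8.86% and 8.21% of all genes. Nfe2l2, encoding NRF2, had 19.4, 21.6 and 20.1 FPKM in WT against 34.0, 29.8 and 26.0 FPKM in KO. All KO libraries lay above all WT libraries, and the difference was 0.53 (interval 0.27 to 0.78, limma adjusted p = 0.11). The KO libraries stood in the order of their summed macrophage markers. The WT libraries did not, WT replicate 3 being above WT replicate 1 for Nfe2l2 and below it in those markers. The part of the cell mixture was not tested. Stat2, which carries interferon signals to the nucleus, stood at 42.3 ± 7.26 and 32.1 ± 3.54 FPKM (limma adjusted p = 0.23). The receptor chains Ifnar1 and Ifnar2 stood at 25.8 ± 0.822 and 30.2 ± 0.787 FPKM and at 9.52 ± 1.28 and 14.4 ± 1.98 FPKM.

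Other genes of the pathway, outside the symbol pattern, were described in the same way. Of 24 partners tested, 13 had a higher mean in KO, with a median difference of 0.01, and 0 passed the test or an unadjusted p under 0.05. Over all genes tested, 35.4% had a higher mean, and the median difference was -0.06. An unadjusted p under 0.05 in limma was found for 17.1% of them, and 0.028% passed the test. Sem1, a small cap subunit, stood at 113 ± 24.4 FPKM in WT against 140 ± 9.50 FPKM in KO (limma adjusted p = 0.34). Pomp, the maturation factor of the core, stood at 73.7 ± 13.6 and 89.7 ± 12.9 FPKM (limma adjusted p = 0.40). Vcp, the segregase that delivers substrates, stood at 87.1 ± 7.85 and 98.0 ± 5.58 FPKM, and Akirin2, which brings proteasomes into the nucleus, at 18.1 ± 2.40 and 20.5 ± 0.867 FPKM.

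Other large complexes, chosen with earlier results of these data known, are set beside the proteasome. Over all genes tested, 35.4% had a higher mean in KO, and the median difference was -0.06. The COP9 signalosome, whose subunits resemble those of the cap lid, had a median difference of -0.07 over 9 genes, with 3 higher in mean. The translation factor eIF3, with the same subunit folds, had -0.04 over 13 genes, with 1 higher. The CCT chaperonin had -0.03 over 8 genes, with 1 higher. No gene of these complexes passed the test or had groups that did not overlap, beside 0.028% and 24.9% of all genes. The constitutive core, at 0.08 with 12 of 14 higher, was not tested against them. Its lowest differences were Psma3 at -0.07 and Psmb1 at -0.02.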

How the data were processed

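RNA was extracted with TRIzol and made into libraries with the VAHTS Universal V6 kit, per the labels. The authors deposited FPKM values, 1 table per library. The submitters' processing notes name mm10. For the aligner, the counter, the strand setting and the gene models the entry is: not given in the sources used here. Each gene's values were whole multiples of what 1 read is worth, so reads could be recovered: 19331 of 19331 genes above 0 in at least 2 libraries came out whole within 0.002 reads. They summed to 34543159 to 38093111 per library. A whole factor shared by a gene's reads in all libraries would go unseen. Proteasome members kept had 317 to 13550 reads per library.

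Genes averaging 1 FPKM or more were tested on log2(FPKM + 1). The test was limma 3.58.1 (R 4.3.3), with its variance prior following the mean level, adjusted after Benjamini and Hochberg over all 10732 genes, with a threshold of 0.05. Differences are KO minus WT on this scale, with 95% intervals from that fit. Both steps were tested on simulated data. Pairs of subunits were compared by exact permutation tests with scipy 1.17.1, adjusted over the 3 pairs.

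The members and lists were chosen with earlier results of these data known. Named genes were the immune subunits and their counterparts, in each other class the highest, the lowest and the smallest p, the 4 highest and 4 lowest moderated t, the members beside the threshold, and the smallest p values of each list. Other marker lists held dendritic, mast and glial cell genes: 8 dendritic markers summed to 111 to 136 FPKM and 8 astrocyte and oligodendrocyte markers to 15.7 to 23.3 FPKM over all libraries, and 10 core macrophage markers to 1251 to 3627 FPKM in WT against 4617 to 10664 FPKM in KO. One further promoter motif is not reported here. Positions are from GENCODE M21 (mm10). Alternatives were pseudocounts of 0.1 and 5, no filter or 5 FPKM, 4 scalings, 3 variance models, the replicate number as a block and leaving out each library; voom on recovered reads was added after seeing the data. Tables used Python 3.11.15, pandas 2.3.3 and numpy 2.4.6, figures matplotlib 3.10.9.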

Additional observations from a re-analysis of the deposited data

How the results depend on the processing

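No proteasome member was called by limma under any alternative, at 0 of 48 each time, with 2 members at an unadjusted p under 0.05 as reported and 1 under voom on the recovered reads. That number was 0 with the replicate number as a block and without WT replicate 1, WT replicate 3 or KO replicate 2, and 6 without WT replicate 2. Among all genes, 17.1% had an unadjusted p under 0.05 in limma as reported. Without WT replicate 2 there were 1294 genes higher and 1389 lower of 10723, and with the block 912 and 604 of 10732. Without WT replicate 1 there were 814 and 892 of 10717. Without WT replicate 3 there were 719 and 542 of 10738, and without KO replicate 2 766 and 448 of 10736. The smallest adjusted p of a member ran from 0.13, for Psmb5 without WT replicate 2, to 0.47. Without that library 22 members were higher and 3 lower with no overlap between the groups, against 2 and 2 as reported, beside 18.5% and 31.9% of all genes in that setting. The 3 ratios of immune to constitutive subunits kept their sign without any single library, from -0.49 to -0.34 for Psmb8 to Psmb5, -0.29 to -0.17 for Psmb9 to Psmb6 and -0.19 to -0.03 for Psmb10 to Psmb7.

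Over all genes, 3 were called higher and 0 lower. With a pseudocount of 5, or with a common total without mitochondrial and ribosomal protein genes, 6 were higher. With no filter 0 were higher and 0 lower. Voom on recovered reads, added after the data were seen, called 5 higher. Array weights called 544 higher and 68 lower. Leaving out single libraries gave 0 to 514 higher and 0 to 38 lower, the most of each without WT replicate 2, and the cause was not tested.

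The replicate number as a block called 11 higher and 0 members. The labels do not state that the numbers pair the samples. Deviations of same-numbered libraries correlated at -0.21, -0.38 and 0.27, and WT replicate 3 alone of the WT libraries correlated best with its own number. With 3 libraries a group, such correlations cannot decide whether the numbers pair them.

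Differences of uncalled members near 0 changed sign. With median-of-ratios scaling they were 0.032 for Psmb10, 0.042 for Psme2, 0.028 for Psme3, 0.026 for Psme4, 0.039 for Psmb1, 0.060 for Psmd11 and 0.0053 for Psmd5. A common total without mitochondrial and ribosomal protein genes gave -0.014 for Psmb6, -0.0031 for Psmb7, -0.072 for Psma2, -0.014 for Psmc3, -0.069 for Psmc6 and -0.069 for Psmg4. A common total of all genes gave -0.021 for Psma2, -0.019 for Psmc6 and -0.020 for Psmg4. Quantile normalization gave -0.060 for Psma2 and 0.0035 for Psmd11. Array weights gave 0.0075 for Psme2, -0.011 for Psmg4 and 0.012 for Psmg2. Leaving out single libraries gave -0.14 to 0.081 for Psmb10, -0.081 to 0.071 for Psme2, -0.028 to 0.17 for Psmb6, -0.00044 to 0.17 for Psmb7, -0.12 to 0.061 for Psme4 and -0.056 to 0.068 for Psma2. The same step gave -0.13 to 0.024 for Psma3, -0.088 to 0.026 for Psmb1, -0.0060 to 0.15 for Psmc3, -0.018 to 0.034 for Psmc6, -0.034 to 0.037 for Psmd11, -0.049 to 0.10 for Psmg4 and -0.019 to 0.23 for Psmg1. Across all named members, 544 values under alternatives kept their direction and side of the threshold and 45 changed sign. The filters, the replicate block and the variance models other than array weights cannot change a difference, so part of that agreement was fixed in advance.

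With 3 libraries a group and intervals of this width, small differences in proteasome transcripts were not detectable. Values of members that overlap other genes, or have a near-identical copy, depend on how the authors assigned reads.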
